A study of Homo sapiens with 3 samples.

Results

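The sh718 line of PC3-Luc cells, which carries a short hairpin against CTHRC1, was compared with the line carrying a control hairpin across all genes with at least 40 counts summed over the 6 libraries of both lines. Of the 21726 genes listed in the deposited count table, 9507 met this minimum and were tested, and 12219 did not. PC3 is an androgen-independent human prostate adenocarcinoma line that was derived from a bone metastasis. All lines of the series are PC3-Luc, made with pMSCV-luc, so the control and hairpin lines share the luciferase construct. The groups were shCtrl (control hairpin) and sh718, and a line with another hairpin against CTHRC1, sh720, is given only beside them. The cells were plated in 6-well plates for 24 h, with no other treatment named. Whether a line is 1 clone or a pool of infected or transfected cells was not stated in the labels. Each line has 3 libraries, and no source names them as different cultures. The p-values therefore cover the variation from library to library, which may be technical, and nothing more.

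CTHRC1 encodes a secreted glycoprotein with a short collagen repeat. It is known from injured arteries, where it promotes cell migration, and as a cofactor that binds Wnt ligands with Frizzled and ROR2 receptors in the planar polarity branch of Wnt signalling. A short hairpin RNA is processed into a small RNA that pairs with its target messenger RNA and lowers it. The series concerns CTHRC1 and the spread of prostate cancer to bone, and this comparison asks which transcripts differ in a line that carries 1 such hairpin.

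Library totals were 883663 to 1020684 counts in sh718 and 897752 to 1108960 in control. Transcripts of the mitochondrial genome made up 12.7% to 15.2% of counts in sh718 and 14.4% to 16.4% in control. The sh718 library 2 differed more from its sister libraries than those did from each other, with a chi-square per gene of 2.20 and 2.24 against 1.27, and held 5.18% mitochondrial ribosomal RNA against 7.89% and 8.17%. Control pairs had values of 1.35 to 1.78. Without sh718 library 2, 745 genes were called higher and 831 lower, against 903 and 1019 with it.

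CTHRC1 (ENSG00000164932, GRCh38 chr8:103371515-103382997, plus strand) was nearly absent from the sh718 line. Its counts were 88, 117 and 126 in the control libraries and 2, 2 and 1 in the sh718 libraries. In CPM (counts scaled to library size with the trimmed mean of M values, TMM), these are 98.9, 132 and 116 against 2.36, 2.01 and 1.06. The groups did not overlap, and the summed counts of 331 and 5 leave 1.52% of the control level in sh718. The ratio of control to sh718 was 65.8 (exact 95% interval 27.9 to 204, counting error only). On the log2 scale the change was -5.91 (standard error, SE, 0.31, adjusted p 5.01e-25). The sh720 libraries held 18.6, 19.8 and 9.75 CPM, a change of -2.85, so that sh718 minus sh720 was -3.06 (SE 0.51, adjusted p 2.67e-06).

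A gene was called changed when the quasi-likelihood test of edgeR gave an adjusted p under 0.05 over all 9507 genes. This held for 1922 genes, or 20.2% of those tested, with 903 higher in sh718 (9.5%) and 1019 lower (10.7%). At a fold change of 2 or more, 152 genes were higher (1.6%) and 268 lower (2.82%). DESeq2 called 441 higher (4.64%) and 556 lower (5.85%). The median change over all tested genes was 0.005 on the log2 scale, and the median size of a called change was 0.64. Large changes were found mostly among genes of low counts, as the plot of change against abundance shows. Of 939 genes with 1000 or more counts, 27.3% were called higher and 20.9% lower, yet only 9 and 10 of them changed at least 2-fold.

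**Figure D1:**
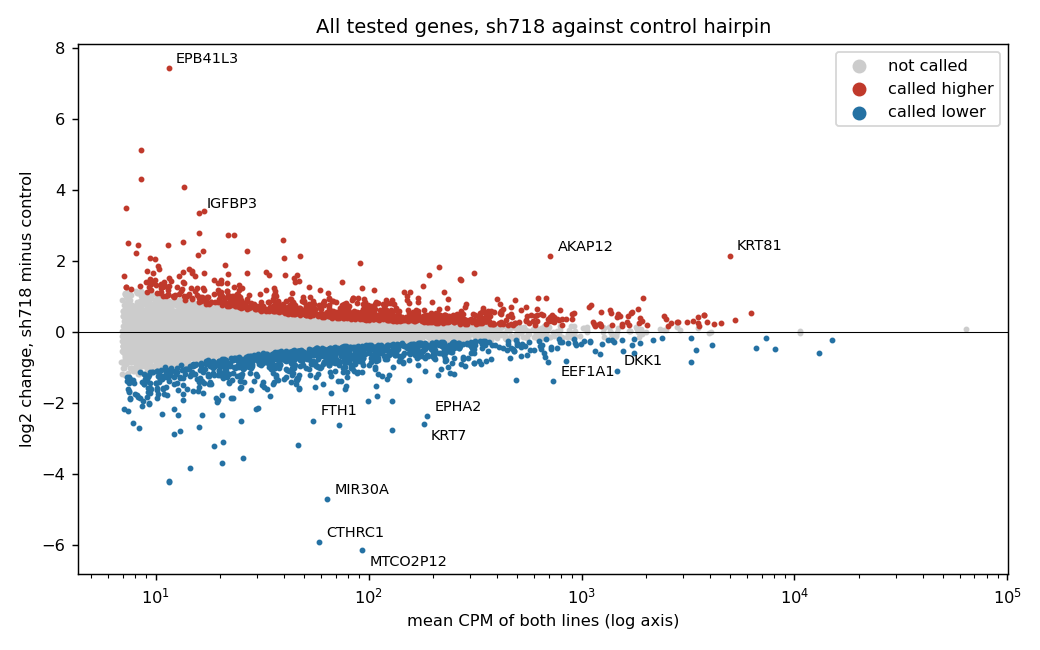
Log2 change, sh718 minus control, of each of the 9507 tested genes against its mean CPM in both lines (log axis); red points were called higher, blue points lower and grey points neither. KRT81 and AKAP12 stand above and CTHRC1, MTCO2P12 and MIR30A below the other genes of like abundance.

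The most abundant gene with a change of at least 2-fold was KRT81, a type II hair keratin of the intermediate filament network. KRT81 (ENSG00000205426, chr12:52285913-52291534, minus strand) stood at 1810.2, 1897 and 1769 CPM in the control libraries and at 7978, 8362 and 8019 in the sh718 libraries. Each sh718 library lay more than 4-fold above each control library. The log2 change was 2.15 (SE 0.06, adjusted p 2.44e-40), against -0.08 in sh720, with a difference between the hairpin lines of 2.24 (adjusted p 2.79e-41). Of the 75-base windows of its longest transcript, 36.6% also occur in transcripts of KRT86, KRT85 or KRT87P, so part of these reads could be placed on any of them.

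Other keratins moved in both directions, and KRT7, KRT80 and KRT81 lie near each other on chromosome 12. KRT7, a keratin of simple glandular epithelia (ENSG00000135480, chr12:52232520-52252186, plus strand), had 326, 309 and 300.2 CPM in control and 42.4, 63.4 and 49.6 in sh718. All sh718 libraries were thus low and far from the control range (log2 -2.57, SE 0.12, adjusted p 3.47e-27), while the sh720 libraries held 516, 574 and 496 CPM, above control. KRT80, an epithelial keratin next to KRT7, went from 6.75, 6.76 and 12.9 CPM to 42.4, 49.3 and 43.3 (log2 2.30, SE 0.28, adjusted p 8.67e-10). KRT19, a small keratin of simple epithelia, rose by 0.38 (adjusted p 1.99e-05). Of 30 keratins listed, 21 had a count in some library of the series and 9 were tested, of which 5 were called higher and 1 lower. The median of the 9 was 0.37, against 0.005 over all genes. The summed level of the listed keratins was 3827 to 4169 CPM in control and 10230 to 10823 in sh718, where most of it was KRT81.

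AKAP12 encodes a scaffold that holds protein kinase A and protein kinase C near the membrane and is known as a suppressor of cell migration. AKAP12 (ENSG00000131016, chr6:151239999-151358557, plus strand) stood at 259.7, 228 and 300.2 CPM in control and 1172, 1285 and 1038 in sh718. The lowest sh718 library was more than 3-fold above the highest control library (log2 2.14, SE 0.08, adjusted p 5.64e-32). The sh720 line did not share this level (log2 0.11, adjusted p 0.596), and the hairpin lines differed by 2.04 (adjusted p 3.19e-31). Among 25 tested genes of anchoring proteins and cyclic AMP signalling, 3 were called higher and 5 lower, with a median of -0.02. AKAP9, a centrosomal anchor, changed by 0.45. The prostaglandin E receptor gene PTGER4 changed by -1.53, the kinase inhibitor gene PKIB by -0.83 and the regulatory subunit gene PRKAR2A by -0.51.

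EPHA2, a receptor tyrosine kinase for membrane-bound ephrin-A ligands, was among the abundant genes that fell. EPHA2 (ENSG00000142627, chr1:16124337-16156087, minus strand) held 315, 326 and 304 CPM in control and 64.8, 55.3 and 64.4 in sh718. The sh718 libraries lay close together, 5.12-fold below control (log2 -2.36, SE 0.11, adjusted p 9.31e-27), and sh720 lay above control at 0.27 (adjusted p 0.0356). Of 10 tested Eph receptors and ephrins, 1 was called higher and 1 lower, EPHA2 being the latter (median 0.25).

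**Figure D2:**
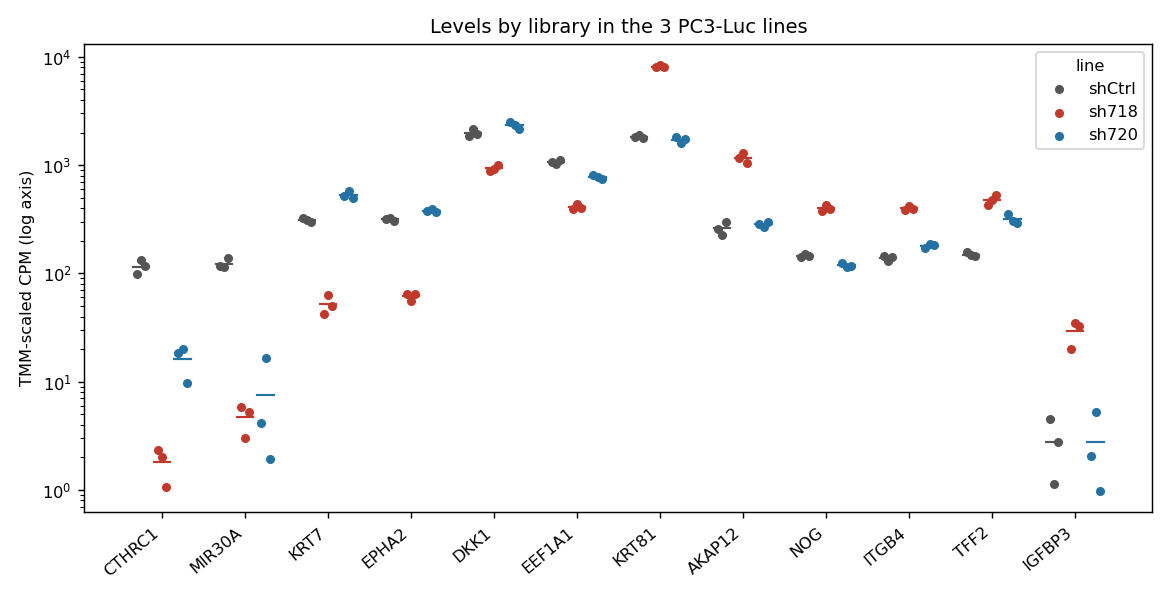
Level of 12 genes in each of the 9 libraries (TMM-scaled CPM, log axis); points are libraries, short lines the mean of 3, and colours the lines. The sh718 libraries lie below the control libraries for the 6 genes on the left and above them for the 6 on the right, and the sh720 libraries lie near control for KRT81, AKAP12, NOG and IGFBP3.

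Among the genes ranked by the 95% bound nearest to no change, the 15 highest included secreted proteins and membrane proteins. EPB41L3, which links membrane proteins to the spectrin and actin skeleton, had no count in any control library and 29, 17 and 17 counts in sh718. It was at least 21.1-fold higher in sh718, taking 3 counts over the control line as the limit. IGFBP3, a carrier of insulin-like growth factors that also restrains growth, went from 4.50, 1.13 and 2.77 CPM to 20, 35.2 and 32.7 (log2 3.35, SE 0.41, adjusted p 1.61e-09). All sh718 libraries lay above all control libraries, and the sh720 line stood at -0.04. PTN, the heparin-binding growth factor pleiotrophin, rose by 2.73, and the incretin hormone gene GIP rose by 2.75. GIP was the only one of these 15 genes with a larger log2 change in sh720, 3.55.

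Further genes in this group were APOBEC3G, a cytidine deaminase that restricts retroviruses (3.42), FAM107A, an actin-associated protein (4.08), the cell surface receptor gene SLAMF9 (2.80) and APCDD1L (2.56). The other genes started at 1 to 3 counts in control and are given as ratios of summed counts with exact 95% counting intervals. The zinc finger gene ZNF544 had a ratio of 47.3 (8.08 to 1907), the glycosyltransferase gene B3GNT7 23.1 (6.05 to 197) and the non-coding LINC01291 12.4 (3.93 to 62.9). Their selection rests on these same libraries, so the separation of the lines in them is no further result. A difference between sh718 and sh720 was called for 14 of the 15, the exception being ZNF544.

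**Figure D3:**
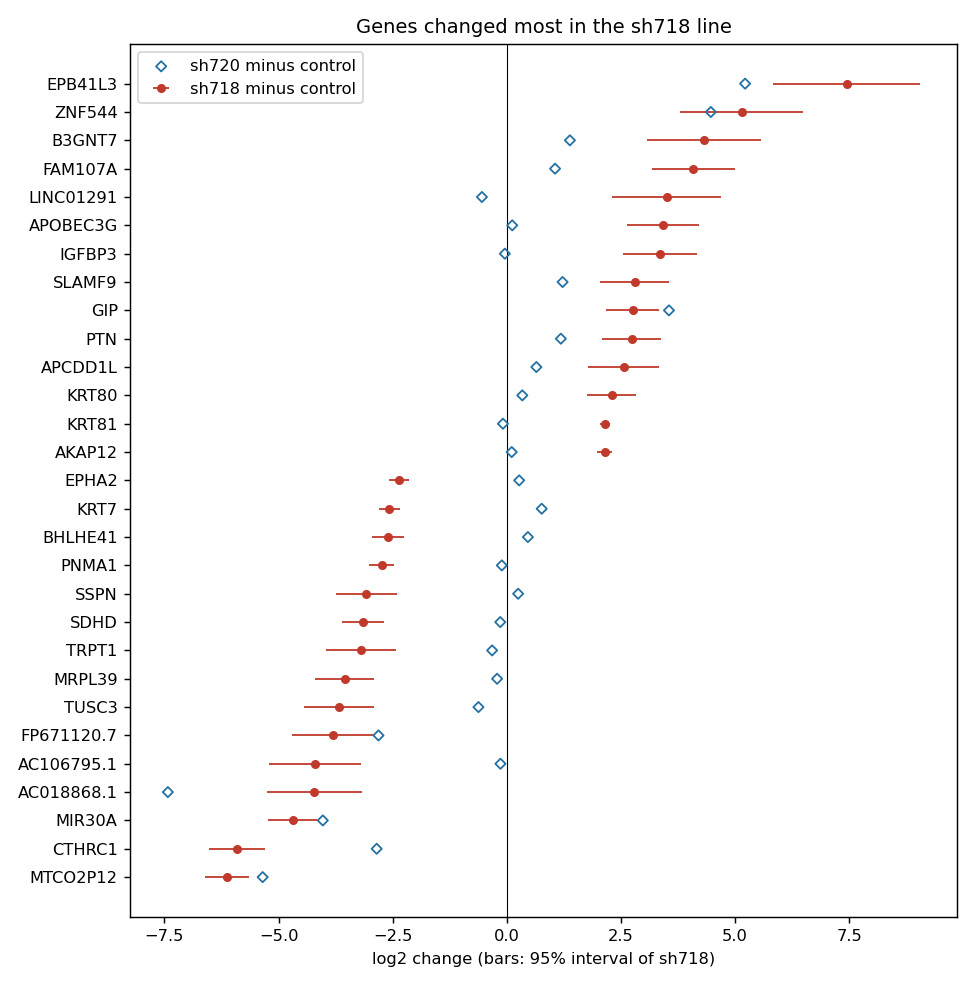
Log2 change of 14 of the 15 highest genes and the 15 lowest genes in the sh718 line, with 95% intervals (red), and the change of the same genes in sh720 (open blue diamonds); both use the same control libraries. The EPB41L3 values are fitted against a control line without counts and are no measure of fold. Most sh720 diamonds among the higher genes lie closer to 0 than the red points.

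The 15 lowest genes included 3 short or repeated non-coding loci with levels close to 0 in sh718. MTCO2P12, a nuclear copy of the mitochondrial cytochrome oxidase gene MT-CO2, went from 165, 152 and 212 counts to 1, 3 and 3 (log2 -6.13, SE 0.24, adjusted p 3.42e-31). MIR30A, which gives the microRNAs miR-30a-5p and miR-30a-3p, went from 105, 101 and 149 counts to 5, 3 and 5 (log2 -4.69, SE 0.27, adjusted p 1.05e-22). FP671120.7, a non-coding RNA whose 75-base windows all occur in other genes too, changed by -3.82. The sh720 line changed in the same direction for these loci, by -5.35, -4.03 and -2.81.

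The MIR30A locus is shown because its annotated span of 71 bases is shorter than the reads of 75 bases. A counted read thus reaches beyond the locus unless it was trimmed to 71 bases or fewer. The sequences are from RefSeq (GRCh38.p14, minus strand, 5′ to 3′), with the precursor at chr6:71403551-71403621 and its mature parts in capitals. In the mature microRNAs, at chr6:71403595-71403616 and chr6:71403554-71403575, capitals mark the seed, bases 2 to 8, through which a microRNA recognises its targets.
MIR30A precursor: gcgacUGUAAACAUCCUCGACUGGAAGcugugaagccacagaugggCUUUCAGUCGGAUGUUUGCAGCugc
hsa-miR-30a-5p: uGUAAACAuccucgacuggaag
hsa-miR-30a-3p: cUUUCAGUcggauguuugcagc
The counts are of this locus in a library of total RNA read at 75 bases, and the level of the mature microRNAs was not measured.

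The protein-coding genes of the 15 lowest have varied roles. TUSC3, a subunit of the oligosaccharyltransferase that glycosylates proteins, went from 42.7, 33.8 and 37.9 CPM to 1.18, 5.03 and 2.11 (log2 -3.67, SE 0.39, adjusted p 1.33e-11). MRPL39, a protein of the mitochondrial ribosome, went from 54, 42.8 and 46.2 to 4.71, 5.03 and 2.11 CPM (log2 -3.55), and PNMA1, a paraneoplastic antigen, from 210.3, 234 and 224 to 38.9, 32.2 and 29.6 CPM (log2 -2.74, adjusted p 2.13e-25). These 3 genes share no 75-base window with another gene's transcripts, and none was called in sh720 (-0.62, -0.21 and -0.11). SDHD, a membrane anchor of succinate dehydrogenase, fell by 3.16 on the log2 scale, with 22.3% of its windows shared with pseudogenes and other transcripts. TRPT1, a tRNA phosphotransferase, changed by -3.20.

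SSPN, a member of the dystrophin complex, and BHLHE41, a repressor of circadian and hypoxia-responsive genes, both fell (log2 -3.08 and -2.61). Their gene spans share 3137 bases on opposite strands of chromosome 12, and no strand setting of the counting is stated in the labels, so their reads cannot be told apart there. BHLHE41 was higher in sh720, by 0.46 (adjusted p 0.0053). AC106795.1 had 63 counts in control and 3 in sh718, a ratio of 20.9 (95% interval 6.82 to 104), but 70.9% of its windows occur in THOC3. AC018868.1 had 64 and 3 counts, a ratio of 21.2 (6.94 to 106), and 27.8% of its windows occur in other genes, RPL36A among them. Of the 15 lowest genes, 11 differed between the hairpin lines.

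Other abundant genes that fell at least 2-fold served translation, protein sorting and transcription. EEF1A1, the translation elongation factor, went from 1060.2, 1035 and 1104 CPM to 389.8, 437 and 402 (log2 -1.38, SE 0.07, adjusted p 1.68e-25). It shares 26.5% of its windows with pseudogenes. The orphan nuclear receptor gene NR2F1 fell by 1.17 and SRP9, a part of the signal recognition particle, by 1.16 on the log2 scale. MTND1P23, a nuclear copy of MT-ND1, fell by 1.33 in sh718 and by 4.27 in sh720, and 48.3% of its windows occur in MT-ND1.

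Wnt signalling runs from secreted ligands through Frizzled and LRP receptors to beta-catenin and TCF factors, and DKK1 is a secreted inhibitor that binds LRP5 and LRP6. DKK1 (ENSG00000107984, chr10:52314296-52318042, plus strand) stood at 1859, 2158 and 1952 CPM in control and 889, 925 and 1011 in sh718, without overlap (log2 -1.08, SE 0.07, adjusted p 8.65e-22). It was higher than control in sh720 (0.23, adjusted p 0.0129). The receptor gene LRP5 fell from 42.3 ± 1.65 CPM (SD, n = 3) to 13.6 ± 2.30, and the factor gene TCF7L2 from 112 ± 13 to 55.8 ± 11.4 (log2 -1.63 and -1.01). MYC, a target of the pathway, changed by -0.59. Of 19 tested canonical Wnt genes, 5 were called lower and 1 higher (26.3% and 5.26%), with a median of -0.02. Over all tested genes the shares were 10.7% and 9.5%. In the planar polarity branch, 4 of 21 tested genes were called lower and 2 higher (median -0.03), among them the receptor gene FZD4 at -0.99 and the small GTPase gene RAC1 at 0.52.

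Bone morphogenetic protein signals are blocked outside the cell by noggin, the product of NOG. NOG (ENSG00000183691, chr17:56593699-56595590, plus strand) went from 141, 149.8 and 144 CPM to 378, 430.5 and 394, each sh718 library lying more than 2-fold above control (log2 1.47, SE 0.10, adjusted p 2.81e-20). The target gene ID1 rose by 0.64 while ID2 fell (-0.59), the inhibitor gene FST fell (-0.48), and GDF15, a stress-induced ligand, rose by 0.81. Of 20 tested genes of this pathway, 4 were called higher and 4 lower (20% each), with a median of -0.06. Over all tested genes, 9.5% were higher and 10.7% lower. For transforming growth factor beta the counts were 4 higher and 2 lower of 20 (median -0.03), with the receptor gene TGFBR2 at -0.87, the mediator gene SMAD3 at 0.57 and the ligand gene INHBB at 0.53.

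Attachment of epithelial cells to laminin by hemidesmosomes showed changes mainly in 1 direction. ITGB4, the integrin beta 4 subunit that forms hemidesmosomes with ITGA6, went from 146, 131 and 143 CPM to 382, 421 and 391 (log2 1.51, SE 0.10, adjusted p 8.99e-21). The laminin chain genes LAMA3, LAMA4 and LAMA5 rose by 0.80, 1.39 and 0.84, LAMA5 from 138, 145 and 145 CPM to 228, 261 and 277. Of 16 tested hemidesmosome and laminin genes, 9 were called higher and 1 lower (56.25% and 6.25%, against 9.5% and 10.7% of all tested genes). Their median was 0.38, and their summed level was 1714 to 1775 CPM in control and 2369 to 2539 in sh718. Among 9 tested members of a separate list of integrin subunits, 3 were higher and 2 lower (median -0.07). ITGB1, ITGA3 and ITGA5 rose by 0.68, 0.54 and 1.17, and ITGA1, a collagen receptor subunit, changed by -0.83.

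Genes of focal adhesions and the actin skeleton were called in both directions, 7 higher and 9 lower of 45 tested (median 0.06). The shares were 15.6% and 20%, against 9.5% and 10.7% of all tested genes. TNS4, a tensin of focal adhesions, rose from 4.50, 6.76 and 5.54 CPM to 34.2, 20.1 and 24.3 (log2 2.18, adjusted p 3.29e-06). PDLIM1, an actin-linked adaptor, rose by 0.94, TAGLN2 by 0.70 and the tyrosine kinase gene SRC by 0.82. Vinculin (VCL), which links talin to actin, fell by 0.52, ENAH, an actin filament elongation factor, by 0.60, and the caveolin gene CAV2 by 0.70.

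Epithelial and mesenchymal genes did not move as opposed groups. Of 19 tested junction genes, 2 were higher and 2 lower (median -0.08), with the adhesion molecule gene EPCAM falling from 30.4, 45.1 and 37.9 CPM to 14.1, 13.1 and 15.8 (log2 -1.39), desmoplakin (DSP) at -0.63 and PERP at 0.52. Of 13 tested mesenchymal genes, 5 were higher and 3 lower (median 0.25). FN1, CDH2 and CDH11, which encode fibronectin and a pair of cadherins, changed by -1.01, -0.59 and -0.59. SPARC, a matrix glycoprotein, and the receptor gene AXL rose by 1.70 and 0.72.

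Matrix and protease genes moved in both directions. The membrane protease gene MMP14 rose from 10.1, 10.1 and 9.24 CPM to 30.6, 24.1 and 28.5 (log2 1.48, adjusted p 0.000106), and TIMP1, an inhibitor of metalloproteinases, from 335 ± 12.3 CPM to 525 ± 14.4 (log2 0.65). MMP13, a secreted collagenase, was at 10.1, 15.8 and 12 CPM in control and 7.07, 2.01 and 2.11 in sh718 (log2 -1.78, adjusted p 0.00402), and higher than control in sh720 (1.67). ADAM9 and SERPINB5 fell (-0.76 and -0.77). The protease list had 6 higher and 4 lower of 22 tested (27.3% and 18.2%, median -0.05), against 9.5% and 10.7% of all tested genes. Collagens and other matrix genes had 7 higher and 2 lower of 24 (median 0.16), COL6A1 and FBN2 among the former at 0.63 and 0.69, and the collagen chaperone gene SERPINH1 among the latter at -0.97.

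Genes linked to bone metastasis were divided. NOG, SPARC and the growth factor carrier gene IGFBP5 (0.79) were higher and DKK1, MMP13, CDH11 and FST lower. In all, 4 of 18 tested were called higher and 5 lower, with a median of -0.19. These shares were 22.2% and 27.8%, against 9.5% and 10.7% of all tested genes. The list shares members with the Wnt, protease and bone morphogenetic protein lists.

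Growth factor genes changed in both directions. Among ligands of the EGF receptor, AREG fell from 96.7, 114 and 112 CPM to 42.4, 47.3 and 34.8 (log2 -1.37), while HBEGF rose from 13.5, 12.4 and 15.7 to 36.5, 30.2 and 40.1 (log2 1.34). FGFBP1, a carrier that releases fibroblast growth factors from the matrix, rose by 1.41 and fell in sh720 (-1.45). PDGFB, VEGFB and VEGFC, ligands of vessel and stromal receptors, changed by -1.57, -1.01 and -0.91, while the semaphorin gene SEMA4B rose by 0.93. The list of EGF receptor ligands and growth receptors had 5 higher and 2 lower of 17 tested (median 0.15), and that of vessel and stromal ligands and receptors 2 higher and 3 lower of 15 (median 0.10). The ERK feedback and output list had 2 higher and 7 lower of 30 tested (median -0.21), with EPHA2 the lowest and the inhibitor gene SPRED1 at -0.64. YAP and TEAD genes had 4 higher and 7 lower of 26 (median -0.09), YAP1 itself at -0.63, NT5E at -0.79 and FJX1 at -1.11. Over all tested genes, 9.5% were called higher and 10.7% lower.

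Glycolysis and hypoxia genes had the largest share of higher calls among the lists with 20 or more tested members. Of 37 tested, 19 were called higher and 1 lower (51.4% and 2.7%), and their median was 0.47. PGK1, phosphoglycerate kinase, went from 1349, 1334 and 1264 CPM to 2546, 2599.9 and 2552, without overlap (1.95-fold, log2 0.96, SE 0.06, adjusted p 1.2e-21). The lactate exporter gene SLC16A3 went from 91.1, 99.1 and 83.1 to 206, 171 and 226 CPM (log2 1.14, adjusted p 1.87e-11). Hexokinase 2 (HK2) rose from 15.7, 24.8 and 13.9 to 31.8, 41.2 and 38 CPM (log2 1.05) and the enolase gene ENO2 from 45, 47.3 and 38.8 to 70.7, 98.6 and 68.6 CPM (log2 0.88). The summed level of the listed genes was 10958 to 11488 CPM in control and 14834 to 15692 in sh718. GAPDH was the 1 gene called lower, from 121, 114 and 117 CPM to 75.4, 73.4 and 64.4 (log2 -0.73). Its level was far below that of PGK1, and the labels do not say how reads were assigned to genes. Whether read assignment affects the GAPDH value was not tested. In sh720, PGK1 was higher by 0.75, SLC16A3 by 0.43 and ENO2 by 0.54, and HK2 stood at -0.02.

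The 250 bases before the start sites of the listed genes were searched for ACGTG and GCGTG on both strands, the core letters that hypoxia-inducible factors bind, and ACGTG can also be part of the E-box CACGTG. Of 18 genes called higher with a RefSeq promoter entry, 15 held a match, and so did 12 of 14 members not called. Among all tested genes with an entry the share was 67.1%, and it was 43.2% over all 35116 promoter windows of this length. The promoters of PGK1 (chrX:78103998-78104247, plus strand) and ENO2 (chr12:6914330-6914579, plus strand), from RefSeq on GRCh38.p14, are shown 5′ to 3′ with matches in capitals. Each is a named glycolysis gene called higher that has a single entry and a match. Other named genes of the list may meet these terms and are not shown.
PGK1: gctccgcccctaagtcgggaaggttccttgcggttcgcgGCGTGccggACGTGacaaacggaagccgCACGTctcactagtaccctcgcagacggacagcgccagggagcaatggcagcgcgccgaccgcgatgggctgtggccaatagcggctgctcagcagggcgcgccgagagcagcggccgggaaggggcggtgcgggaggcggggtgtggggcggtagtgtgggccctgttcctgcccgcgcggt
ENO2: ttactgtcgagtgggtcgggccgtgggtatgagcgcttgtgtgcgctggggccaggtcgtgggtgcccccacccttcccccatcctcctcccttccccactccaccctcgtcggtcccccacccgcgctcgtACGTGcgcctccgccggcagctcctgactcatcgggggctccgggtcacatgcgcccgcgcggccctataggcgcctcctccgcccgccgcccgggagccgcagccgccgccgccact
PGK1 held 3 matches and ENO2 held 1. The match is a description of letters and was as common in members that were not called.

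**Figure D4:**
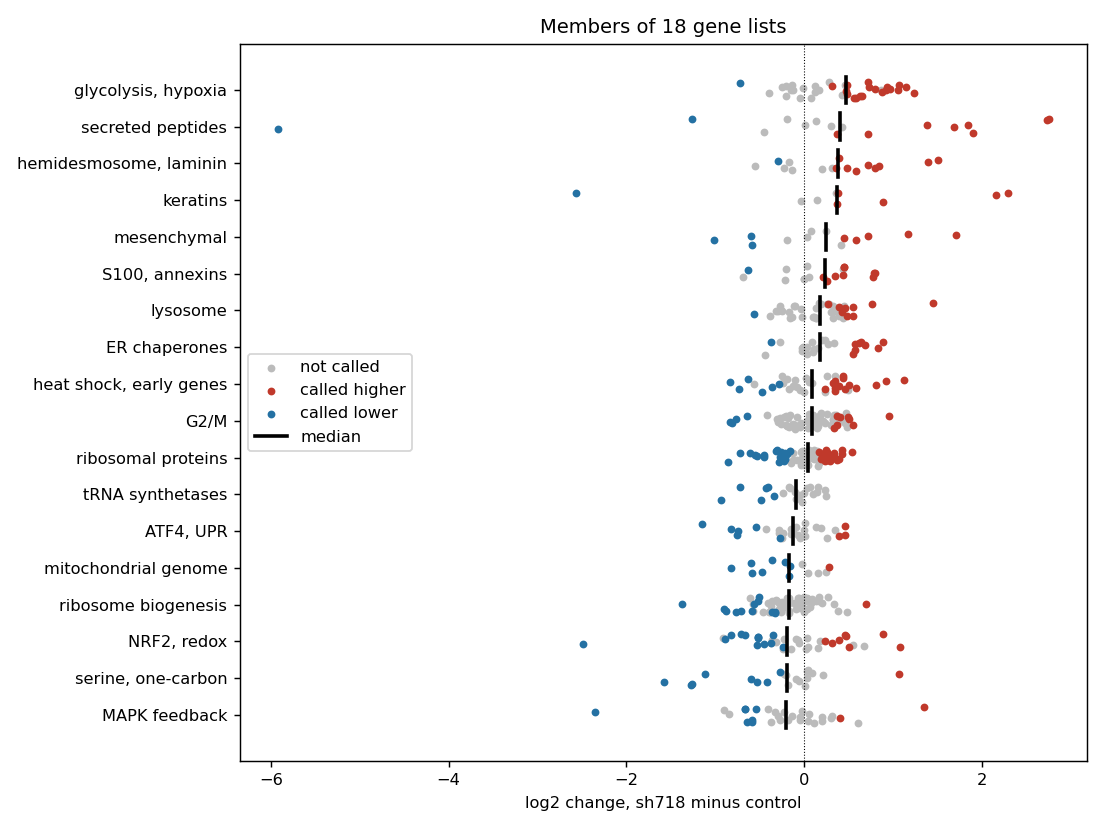
Log2 change, sh718 minus control, of every tested member of 18 of the 44 gene lists; red points were called higher, blue points lower, grey points neither, and black bars are list medians. Medians run from -0.21 for ERK (MAPK) feedback genes to 0.47 for glycolysis and hypoxia genes.

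Of the called chaperones of the endoplasmic reticulum all but 1 were higher, and of the called serine and one-carbon genes all but 1 were lower, while more members of either list were not called. HSPA5, the main chaperone of that compartment, went from 695, 594 and 597 CPM to 962, 1019 and 902 (log2 0.61, adjusted p 1.36e-10), and HSP90B1 and SDF2L1 rose by 0.57 and 0.83. Both HSPA5 and HSP90B1 were lower than control in sh720 (-0.36 and -0.48). Of 24 tested, 8 were higher and 1 lower (median 0.18), the exception being MANF (-0.37). PSAT1, an aminotransferase of serine synthesis, fell from 100.1, 128 and 122 CPM to 30.6, 48.3 and 36.9 (log2 -1.58, adjusted p 2.07e-12). Serine and one-carbon genes had 8 lower and 1 higher of 20 (median -0.19), and tRNA synthetase genes 6 lower of 21 (median -0.09), with TARS1 at -0.94 and MARS1 at -0.72. Genes of the ATF4 and unfolded protein response had 6 lower and 3 higher of 27 (median -0.12), among them PCK2 at -1.15 and CEBPB at -0.82.

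Heat shock and immediate early genes had 14 higher and 6 lower of 37 tested (median 0.09, range -0.83 to 1.13). HSPA9, a heat shock protein gene of mitochondria, was called lower (-0.48). JUN, a subunit of the AP-1 factor, went from 103, 92.4 and 97.9 CPM to 239, 206 and 198 (log2 1.13, adjusted p 6.33e-12). The co-chaperone gene DNAJB1 rose by 0.92 and IER2 by 0.59. HSPA1A rose by 0.80, with 71.2% of its windows shared, chiefly with HSPA1B.

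Redox genes had 13 lower and 8 higher of 38 tested (median -0.19). Thioredoxin (TXN) fell from 559.9, 602 and 561 CPM to 379, 343 and 328 (log2 -0.71, adjusted p 2.71e-11), the peroxiredoxin gene PRDX2 by 0.89 and catalase (CAT) by 0.82 on the log2 scale. GSTP1 and PRDX4 rose by 0.46 and 0.47. FTH1, the ferritin heavy chain, went from 84.3, 101 and 93.3 CPM to 20, 6.03 and 24.3 (log2 -2.49), and 30.8% of its windows occur in pseudogenes. Its level in sh718 library 2 was the lowest of the 9 libraries.

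Cell cycle genes were called about as often as all tested genes, of which 9.5% were higher and 10.7% lower. Ribosomal protein genes had many calls in both directions, 26.9% higher and 25.6% lower. Among all tested genes with 1000 or more counts, 27.3% were higher and 20.9% lower. G1/S genes had 8 higher and 6 lower of 58 (13.8% and 10.3%, median 0.06). For G2/M genes the counts were 8 higher and 4 lower of 66 (12.1% and 6.06%, median 0.09). CDKN1A, the cyclin-dependent kinase inhibitor p21, rose from 8.99, 19.2 and 10.2 CPM to 45.9, 36.2 and 40.1 (log2 1.68, adjusted p 2.36e-06), and the kinase inhibitor locus CDKN2A fell (-0.75). RRM2, a subunit of ribonucleotide reductase, rose by 0.60 and UBE2S, a ubiquitin enzyme of mitosis, fell (-0.83). Ribosome biogenesis genes had 12 lower and 1 higher of 65 (median -0.17), UTP6, GNL3 and DDX21 at -1.37, -0.88 and -0.71. Cytosolic ribosomal protein genes were split, 21 higher and 20 lower of 78 (median 0.04), from RPL23A at -0.86 to RPS15 at 0.54.

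Transcripts of the mitochondrial genome had 8 lower and 1 higher of 13 tested (median -0.17). MT-ND1 fell from 3914, 4037 and 4538 CPM to 2370.5, 2352 and 2322 (log2 -0.83, adjusted p 1.33e-17) and MT-ND4 by 0.58 on the log2 scale. The summed level of the 13 genes was 87284 to 91127 CPM in control and 73652 to 77035 in sh718, without overlap. Without the genes of the mitochondrial genome, 907 genes were called higher and 1021 lower.

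Lysosomal, secretory and calcium-binding genes were mostly higher among those called. Lysosome genes had 9 higher and 1 lower of 40 (median 0.18), with the fucosidase gene FUCA2 at 1.45, progranulin (GRN) at 0.55 and CD63 at 0.48. S100 and annexin genes had 9 higher and 1 lower of 18 (median 0.23). S100A10, S100A2 and ANXA6 rose by 0.78, 0.79 and 0.80, and ANXA7 fell (-0.63). Of 16 tested secreted peptide genes, a list drawn partly from genes seen to change in these libraries, 8 were higher and 2 lower. AGR2, a disulfide isomerase of mucus-secreting cells, went from 116, 94.6 and 72.1 CPM to 318, 364 and 317 (log2 1.84), and TFF2, a trefoil peptide, from 156, 148 and 144 to 431, 478 and 526 CPM (log2 1.68). The growth factor gene MDK fell by 1.26 on the log2 scale.

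Over all tested genes, 20.2% were called. Cytokine and cholesterol genes had smaller shares of calls, and histone and antigen presentation genes had larger ones. Interferon and fatty acid genes had shares nearer to that over all genes. IL1B, a pro-inflammatory cytokine, rose from 14.6, 22.5 and 10.2 CPM to 47.1, 52.3 and 50.7 (log2 1.69, adjusted p 1.38e-07) and fell in sh720 (-1.89), while IL18 fell from 73.1, 72.1 and 66.5 to 22.4, 17.1 and 30.6 CPM (log2 -1.59). They were the only genes called of 17 tested cytokine and NF-kB genes (median 0.09). Interferon genes had 3 higher and 2 lower of 23 (median 0.17), with the exonuclease gene ISG20 at 2.14 and the factor gene IRF7 at -1.34. Antigen presentation genes had 3 in each direction of 15 (median 0.19). Cholesterol genes had 1 higher and 3 lower of 28 (median -0.13). Fatty acid and sphingolipid genes had 4 higher and 5 lower of 36 (median 0.04), with SCD5 and SPTLC3 at 1.46 and 1.26. Histone genes had 6 higher and 3 lower of 19 (median 0.25).

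Markers of other cells were few. The genes KLK2, KLK3 and KLK4 were not analysed here. Luminal prostate genes had 2 higher and 1 lower of 11 tested, FOXA1 falling (-0.63). Of 20 leukocyte and endothelial markers, 9 had a count and PECAM1 alone was tested, at 25.9, 21.4 and 24.9 CPM in control and 50.6, 51.3 and 46.4 in sh718 (log2 1.03), while PTPRC had 2 counts. Neuroendocrine markers had 3 tested and 2 higher, ENO2 among them, with 1 count for SYP. Of 17 fibroblast and osteoblast markers 1 was tested, PHEX, an endopeptidase gene of bone, which went from 8.99, 10.1 and 3.70 CPM to 25.9, 11.1 and 22.2 (log2 1.38, adjusted p 0.0037). The PHEX call was lost under DESeq2 (adjusted p 0.0597) and in the edgeR fit without control library 3 (adjusted p 0.0729). The part of other cells in these results was not tested.

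Lower genes were unevenly spread over the chromosomes. On chromosome 11, 159 of 554 tested genes were lower (28.7%) and 15 higher (2.71%), with a median of -0.29. Shares of lower genes were also above the overall 10.7% on chromosome 3 (20.3%), chromosome 10 (18.8%), chromosome 8 (17.7%), chromosome 5 (16.2%), chromosome 14 (13.2%) and chromosome 1 (11.8%). Of the 17 tested genes of the mitochondrial genome, 9 were lower (52.9%). Shares of higher genes were largest on chromosome 20 (19.5%), chromosome X (15.3%) and chromosome 19 (13.7%).

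**Figure D5:**
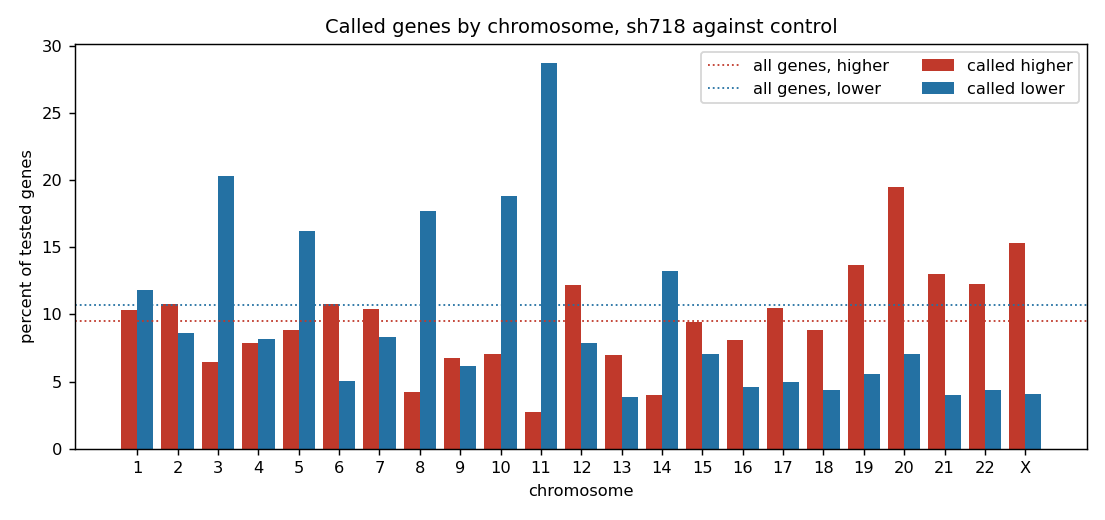
Percent of tested genes called higher (red bars) or lower (blue bars) in sh718 on each nuclear chromosome other than Y; dotted lines are the shares over all tested genes. Among these, chromosome 11 has the largest share of lower genes, 28.7%, and chromosome 20 the largest share of higher genes, 19.5%.

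In fixed windows of 10 Mb with at least 15 tested genes, 7 of 237 had at least 40% of their genes called lower, and no window had as many called higher. They were chr5:1-10000000 (11 of 24 genes, median -0.62), chr5:40000001-50000000 (9 of 19, -0.56), chr8:80000001-90000000 (9 of 21, -0.39), chr8:100000001-110000000 (11 of 25, -0.38), chr10:60000001-70000000 (15 of 32, -0.46), chr10:70000001-80000000 (27 of 50, -0.50) and chr11:30000001-40000000 (13 of 24, -0.64). CTHRC1 lies in the window from 100000001 on chromosome 8, and VCL, DDX21, CAT, FJX1, ANXA7 and PTGER4 lie in others. These windows held 95 genes called lower, 9.32% of all lower calls, against 2.05% of tested genes. As the windows were chosen for their lower calls, this excess is no further result. Outside these windows 900 genes were higher and 924 lower. In sh720 the medians of the chromosome 10 windows were -0.33 and -0.53, and those of the others lay between -0.11 and 0.07. The number of windows depended on single libraries, at 3 without sh718 library 3, 4 without sh718 library 2 and 4 without control library 1. It also depended on the analysis, with 2 windows by DESeq2, 0 without a count minimum and 16 with a count minimum of 200. The medians of the 7 windows lay between -0.66 and -0.38 by DESeq2, and between -0.80 and -0.38 without sh718 library 2. Some windows under the limit also had low medians, such as chr3:30000001-40000000 (37.9% lower, -0.54) and chr3:40000001-50000000 (39.2%, -0.48). On chromosome 11, chr11:110000001-120000000 had 36.7% lower and a median of -0.43.

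The minimum of 40 counts left out genes just below it. At exactly 40 counts, 62 genes were tested, of which 21 had more counts in sh718 and 33 fewer. At 39 counts, 54 genes were not tested, with 20 and 34. Among these was MGMT, which repairs alkylated guanine, with 39 counts in sh718 and 0 in control. Several genes that cells use widely have almost no counts here (ALDOA with 1 and CDK4 with 9 over the 6 libraries), and the labels do not say how reads were assigned to genes.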

How the data were processed

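RNA sequencing counts of 9 libraries, 3 from each of 3 PC3-Luc lines, were used. The labels' protocols name a NovaSeq6000 and single-end reading of 75 bp. The authors deposited raw counts per Ensembl gene. Trim Galore and GRCh38 are named, per the submitters' processing notes, while for aligner, counter and strand setting these sources give no name.

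Genes with 40 or more counts over the sh718 and control libraries entered glmQLFit and glmQLFTest of edgeR 4.0.16 (R 4.3.3) after TMM scaling, in 1 model of all 9 libraries, with Benjamini-Hochberg adjustment over 9507 genes. Levels are TMM-scaled CPM computed here from the deposited counts. The common biological coefficient of variation was 5.89%. In simulated data with 9507 genes and 1 spread for all of them, 50 random genes were raised and 50 other genes lowered 2-fold. Of these, 43 (86%) and 30 (60%) were called, and the sets differed in their genes. In the same data 50 further genes were raised and 50 lowered by 2 on the log2 scale, with 50 and 45 called. Of 9307 unchanged genes, 8 were called. Positions came from GENCODE release 29 (21258 genes matched).

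The members and the 44 gene lists were chosen with earlier results of these data known. Genes were named by rule: 5 marker genes, the 15 higher and 15 lower genes with the 95% bound farthest from 0, the 5 most abundant changed at least 2-fold in each direction, genes without counts in 1 line, and at most 4 called genes per list and direction. MGMT, ALDOA, CDK4 and markers below the minimum were picked after their values were seen. Values of a few single genes are not reported here. List counts and medians cover tested members only, and stand beside shares of 9.5% higher and 10.7% lower over all tested genes. DESeq2 1.42.0, other scalings and filters, and leaving out each library were tried. The same library number did not pair libraries across the lines (correlations -0.011 to 0.024).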

Additional observations from a re-analysis of the deposited data

Results flagged for a closer look

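Among the 254 genes named by rule, 27 were called in opposite directions in the hairpin lines, each against the same control libraries, and their difference, sh718 minus sh720, was called as well; 25 of them are given here. They were flagged because the effects of the hairpin lines differed by a test of the difference itself. Among the genes lower in sh718 and higher in sh720, the log2 difference was -3.45 for MMP13, -3.34 for KRT7, -3.13 for MMP1, -3.07 for BHLHE41, -2.63 for EPHA2 and -2.26 for PCK2. It was -1.54 for CEBPB, -1.42 for NT5E, -1.33 for PKIB, -1.32 for CEBPG, -1.31 for TWSG1, -1.30 for DKK1, -0.75 for HSPA9 and -0.63 for CD151. Among the genes higher in sh718 and lower in sh720, the largest differences were 3.58 for the cytokine gene IL1B and 2.86 for FGFBP1. IGFBP5 differed by 1.42, HSPA1A by 1.40, HSP90B1 by 1.05, HSPA5 by 0.98 and INHBB by 0.84. The remaining differences were 0.75 for NF2, 0.74 for LTBP1, 0.67 for CLDN4 and 0.60 for RPS4X. For CD151, CLDN4, LTBP1, MMP1, NF2 and TWSG1 the call in sh718 against control was lost in at least 1 alternative analysis.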

How the results depend on the processing

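The change of CTHRC1 lay between -6.11 and -5.66 under every alternative tried. DESeq2 called 441 genes higher, 556 lower and 93 at least 2-fold higher. With a count minimum of 200, 4622 genes were tested and 32 were at least 2-fold higher and 85 lower, among fewer genes of low counts. With 1 library left out, 641 to 799 genes were higher and 831 to 896 lower. Upper quartile scaling gave 1042 higher and 921 lower. Windows with at least 40% of genes called lower numbered 7, and 12 at 5 Mb, 2 with DESeq2, 0 without a count minimum (20327 genes tested), 16 with a count minimum of 200 and 3 to 6 with 1 library left out. The share is taken over tested genes, whose number differed with the count minimum, and the cause of these differences was not tested. A fit with the library number as a replicate block gave 911 higher and 1028 lower. Of the 254 named genes, all called, 184 were called under every alternative in which they were tested, and none reversed. Some of them were not tested with a count minimum of 200, where 179 named genes were called. Among the 70 lost at least once, 62 were lost under DESeq2, 66 with a library left out and 13 after correction for GC content and length. Of the genes with 40 to 99 counts, 3.82% were called higher and 5.66% lower, smaller shares than over all genes.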
